A study of Bos taurus with 8 samples.

Results

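The 4 arrays described here set primary muscle cell cultures of Hereford (HER) bulls, a beef breed, beside cultures of Holstein-Friesian (HF) bulls, a dairy breed that served as the reference. They were taken by their titles from a series of 8 two-colour arrays, of which the other 4 compare Limousin (LIM) bulls, also a beef breed, with HF. All cells came from the semitendinosus, a hindlimb muscle, of 15-month-old bulls, with 4 bulls per breed, and were frozen while proliferating at 80% confluence in a medium with fetal bovine serum and with no other treatment. Per the study's methods, cells were released from the muscle with Pronase, sieved, and enriched for myoblasts by repeated preplating, which removes fast-adhering cells but leaves some in the culture. On the HER arrays RNA from HER cells was labeled with Cy3 (green) and RNA from HF cells with Cy5 (red), and each array was labeled as 1 of 4 biological replicates. Each value is a log2 ratio of HER over HF, positive where HER cells held more of the transcript, and 1 on this scale is a doubling. No array of this comparison had the dyes turned, so breed and dye cannot be told apart within it. On the LIM arrays the beef breed carried Cy5, but both comparisons rest on HF cultures. LIM values are given below side by side and in 1 test of the difference. The LIM arrays also enter the p-values of HER over HF, through a spread per probe shared by all 8 arrays.

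Satellite cells are the stem cells of skeletal muscle. When activated they divide as myoblasts under the transcription factors MYF5 and MYOD1, leave the cell cycle as myogenin (MYOG) comes on, and fuse into myotubes that fill with sarcomeres, the contractile units built from thick myosin filaments and thin actin filaments. In culture a share of the cells starts this program before fusion is visible. Fibroblasts, endothelial cells, and pericytes of the muscle can grow in the same flask and make collagen or vessel transcripts. RNA was taken from whole cultures, so a lower value for the genes of a cell type cannot tell fewer such cells from less of their RNA per cell.

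Of 21475 probes, 16041 were bright enough to be tested, and 3040 of them (19%) passed an adjusted p of 0.05 and a fold of 1.3, which is called a change here. HER cells were higher for 1663 probes (10.4%) and lower for 1377 (8.58%). The balance turned to 891 higher and 1469 lower with median centring in place of loess, and to 1786 and 2403 with the scanner software's own log ratios. At an unadjusted p the count was 4035 (25.2%), with 2227 higher (13.9%) and 1808 lower (11.3%). The median log2 ratio of the called probes was 0.71 among those higher and -0.63 among those lower, and 67 probes were above 2 against 6 below -2. A gene name was known for 6341 tested genes, of which 1201 changed (18.9%), 753 higher (11.9%) and 448 lower (7.07%). These last shares are the background for each gene group below. The gene lists were chosen with earlier results of these data known, so the counts within them are a description. The median log2 ratio over all tested genes was 0.02.

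The number of calls depended on how the local background of the arrays was treated. On HER replicate 2, 11 spots had a red local background above 500, up to 72865.5, in a pair of small patches, and on replicate 3 there were 38 such spots, up to 775167, in 4 patches. The median red background was 35 and 37 on these arrays, and replicates 1 and 4 had 0 spots above 500. All of these spots carried the scanner software's mark for an outlying background, and no unmarked background on a HER array was above 49. Background correction fits 1 curve to the whole array, so with backgrounds as measured the log2 ratios of replicates 2 and 3 had an SD of 0.36 and 0.29 across probes, against 0.63 and 0.41 on replicates 1 and 4, and 0 probes passed the adjusted test (1767 passed at an unadjusted p). With marked backgrounds replaced by the median of the array, the setting used throughout, the SDs were 0.65, 0.6, 0.54, and 0.42 on replicates 1 to 4. Replacing just the backgrounds above 500 gave 2852 called probes, of which 2850 were among the 3040.

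**Figure D1:**
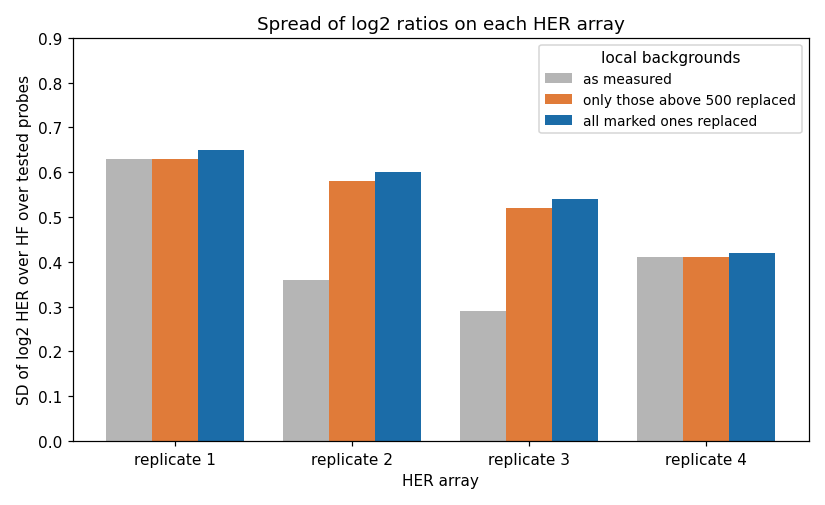
SD of the log2 HER over HF ratios over 16041 tested probes on each of the 4 HER arrays, with local backgrounds as measured (grey), with those above 500 replaced (orange), and with all marked ones replaced (blue). As measured, replicates 2 and 3 stand at 0.36 and 0.29, and with either replacement all 4 arrays lie between 0.41 and 0.65.

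A replaced background does not mend the spot itself. Of 49 probes with a spot inside these patches on a HER array, 36 were tested and 0 were called. Within the patches 13 spots had a red intensity above 700000, and 4 of these were marked as outlying spots and left out. Through the others, 9 tested probes read below -2 on replicate 3. DDHD2, a phospholipase, read 1.37, 1.29, -2.65, and 0.76 on replicates 1 to 4, and TPD52, a vesicle trafficking protein, read 0.31, 1.42, -2.46, and 0.55. Both were singled out after their values were seen, and replicate 3 opposes the other arrays in each. None of the genes chosen by rule for naming had a spot in a patch.

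Replicates agreed to different degrees. Across tested probes, which are not independent replicates, the Pearson correlation between arrays ran from 0.408 for replicates 3 and 4 to 0.734 for replicates 2 and 3. Of the 3040 called probes, 3021 (99.4%) had the same sign on all 4 arrays, against 8349 (52%) of all tested probes. The call rests on the mean and spread of these same arrays, so it favours probes with 1 sign, and the share is a description. Paired spots of a probe on 1 array differed by an SD of 0.04 to 0.051, taken from the median squared difference over probes. Taken from the mean squared difference, which large differences raise, it was 0.09, 0.1, 0.18, and 0.08 on replicates 1 to 4. The median SD of a probe between arrays was 0.2, and 0.27 among called probes. By the medians the spread between arrays was thus larger than that between spots of an array, although these measures are not computed alike. Leaving out HER replicates 1 to 4 in turn left 1225, 1131, 1926, and 2737 probes called, and of 143 named called genes 67, 59, 79, and 118 were still called. The size of a ratio also depended on the processing for genes with a dim channel. With the scanner software's log ratios 15 of the 143 genes moved by over 1.5 times, all away from 0, among them IL15 from 0.61 to 2.12, TCF21 from -0.71 to -1.69, IL6 from -1.61 to -2.41, and IGFBP2 from 1.48 to 2.31. Calls were fewer among dim probes, with 4.46% higher and 3.17% lower among the dimmest of 4 equal groups of probes against 14.7% and 10.6% among the brightest.

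The genes with the highest ratios were led by ACTA1 and MYH3. ACTA1, skeletal muscle alpha-actin, read 3.63, 3.53, 4.38, and 5.60 on replicates 1 to 4, a mean of 4.29 ± 0.95 (SD), or 19.5-fold (adjusted p = 0.00379). MYH3, the embryonic myosin heavy chain, read 3.44, 3.31, 3.13, and 4.21, or 11.5-fold (adjusted p = 0.00132). Neither gene came near 0 on any array, and the means on the LIM arrays were 4.30 and 3.84. CDH13, a cadherin without a transmembrane part, followed at 3.25 ± 0.75, then KLHL41, a sarcomere-associated protein of the kelch family, at 3.21 ± 0.46, and GADD45G, a stress and growth-arrest gene, at 3.13 ± 0.93. The lowest ratios were those of CCL2, the monocyte chemokine, with -1.42, -3.25, -2.49, and -0.85 (mean -2 ± 1.08, adjusted p = 0.0196), whose call was lost without replicate 1, 2, or 3 (mean -2.39 to -1.59), and of CLDN15, a tight junction claudin, with -3.02, -1.90, -1.59, and -1.35. CA4, a membrane-bound carbonic anhydrase, was as low at -1.96 ± 0.42, and RGS17, a regulator of G-protein signaling, at -1.76 ± 0.85. A probe with no gene name went lowest of all called probes, at -3.49.

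**Figure D2:**
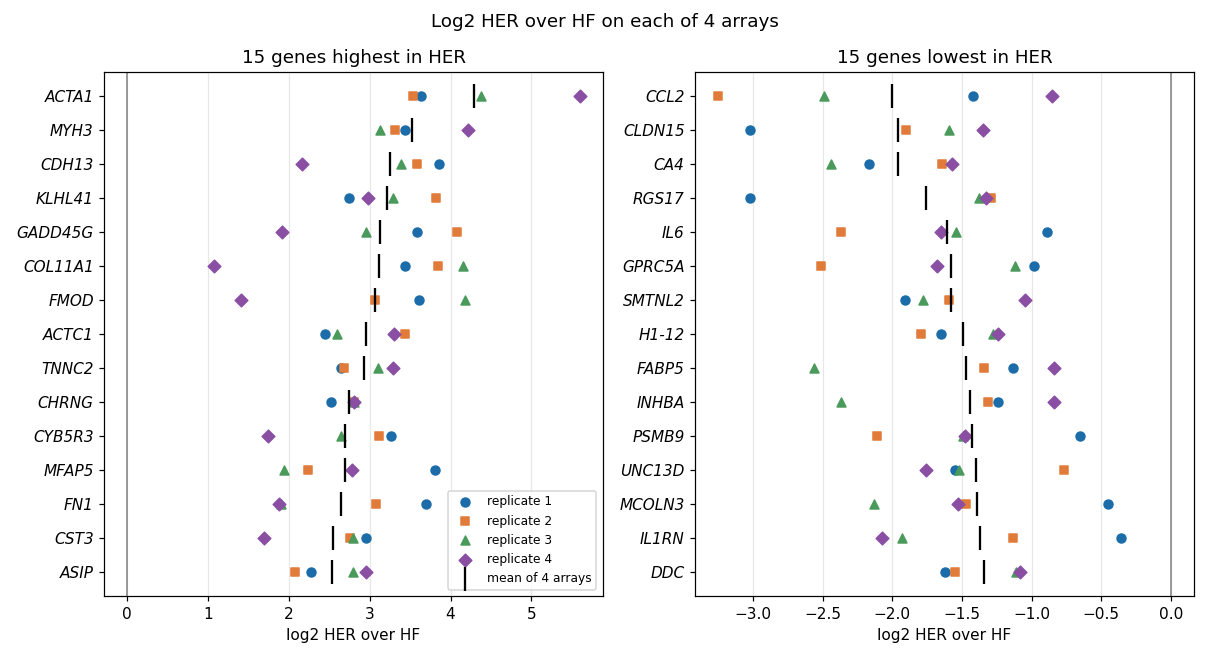
Log2 HER over HF on each of 4 arrays (coloured symbols) and their mean (black bar) for the 15 highest and 15 lowest named genes among those called with 1 sign on all 4 arrays. The highest range from ACTA1 at 4.29 to ASIP at 2.53, the lowest from CCL2 at -2 to DDC at -1.34.

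Of 12 tested regulators of myogenesis, 3 were higher, 0 were lower, and the median was -0.11. MYOG, which drives the turn to differentiation, read 1.35, 2.06, 2.13, and 1.99 (3.68-fold, adjusted p = 0.00252), so every array lay above a doubling. MYF5, which marks activated and dividing myoblasts, read 1.41, 1.83, 0.92, and 0.67 (2.31-fold, adjusted p = 0.0119), and MYF6, a late regulator, 0.17, 1.04, 0.71, and 0.77 (1.6-fold, adjusted p = 0.0401, or 0.092 with the replicate number as a block). MYF5 lost its call without replicate 1 or 2 (mean 1.00 to 1.38 with an array left out), and MYF6 without any of the arrays (0.55 to 0.84). MYOD1 differed most between arrays, with -0.09, 2.70, 1.51, and 0.51, and its mean of 1.16 ± 1.22 did not pass (adjusted p = 0.0702). ID1, an inhibitor of these factors chosen here after its values were seen, read -1.36, -0.92, -1.13, and -0.22 (adjusted p = 0.0589). PAX7, the defining factor of satellite cells, had no matched probe.

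In the thin filament list 9 of 13 tested genes were higher (69.2%, against 11.9% of all tested genes) and 1 was lower, with a median of 1.86. Beside ACTA1 and KLHL41, ACTC1, cardiac alpha-actin, which developing skeletal muscle also uses, read 2.45, 3.44, 2.60, and 3.30 (7.72-fold), and TNNC2, the calcium-binding troponin of fast fibres, 2.65, 2.68, 3.1, and 3.29 (7.62-fold). TNNC2 had an SD of 0.32 between arrays. NRAP, an actin-anchoring protein of young myofibrils, was the member that fell, at -1.28, -0.73, -0.44, and -0.57 (adjusted p = 0.0371, or 0.0644 with the replicate block), a call lost when any 1 array was left out. Leaving out each HER array in turn left 7, 7, 8, and 7 genes of this list higher.

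Of 10 tested thick filament genes, 5 were higher and 0 lower (median 0.74), and 3 were higher without replicate 2. MYL1, a light chain of fast myosin, read 3.47, 2.31, 1.49, and 2.18 (5.15-fold, adjusted p = 0.00931), and MYL6B, a light chain of slow and non-muscle myosin, 1.36, 1.23, 0.84, and 1.5 (2.35-fold, adjusted p = 0.00298). MYL2, the regulatory light chain of slow fibres, had the largest SD of all called named genes, 1.45, with 2.79, 1.93, 0.40, and 3.84 on the arrays (adjusted p = 0.0168). It was well above background in 3 of 4 channels on either side, and its call was lost without replicate 1 or 2 (mean 1.71 to 2.85 with an array left out).

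Among 14 tested genes of the Z-disc, titin, and intermediate filaments, 3 were higher and 0 lower, with a median of 0.22, and 1 was higher without replicate 2. DES, the muscle intermediate filament desmin, read 1.55, 2.18, 2.02, and 2.56 (4.22-fold, adjusted p = 0.00416). ASB5, an ankyrin-repeat protein, read 1.05, 2.44, 2.61, and 1.14, and ANKRD1, a stretch-responsive titin partner, 1.52, 2.80, 1.5, and 0.83. In the calcium handling and excitation list 3 of 6 were higher, led by STAC3, which couples excitation to calcium release, at 1.38 ± 0.34, and 1 was higher without replicate 1, 2, or 4. ATP2A1, the calcium pump of fast fibres, read 0.92, 1.25, 0.14, and 1.60 (adjusted p = 0.0213) and lost its call without replicate 1, 2, or 4 (mean 0.77 to 1.26). Muscle energy metabolism had 2 of 21 genes higher and 1 lower: PGAM2, the muscle phosphoglycerate mutase, stood at 1.99 ± 0.58, ENO3, the muscle enolase, at 1.24 ± 0.30, and ALDOA, aldolase, at -0.47 ± 0.19.

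The acetylcholine receptor of the muscle membrane was higher in most of its measured subunits. CHRNG, the fetal gamma subunit, read 2.52, 2.81, 2.80, and 2.81 (6.67-fold, adjusted p = 0.00252), and the CHRNB1, CHRNA1, and CHRNE subunits were higher at 1.28 ± 0.40, 1.21 ± 0.49, and 0.76 ± 0.34. In all 4 of 6 tested genes of this list were higher, and the rest read 0.64 (CHRND, the delta subunit) and 0.26 (ERBB3, a neuregulin receptor). The study reported ERBB3 as higher in both beef breeds by array and qPCR. Here it was dim, with log2 intensities of 6.7, 7, 6.71, and 7.04 in the HER channel. The HF channel of the same arrays read 6.58, 6.66, 6.5, and 6.68 for ERBB3. Of 12 genes of fusion and myoblast adhesion, 5 were higher and 0 lower (median 1.04). CDH15, the M-cadherin of myoblasts, read 2.06, 2.70, 2.31, and 1.48 (4.41-fold, adjusted p = 0.00298), and ITGA7, the laminin-binding integrin subunit of muscle, 1.90, 1.76, 1.53, and 0.56 (2.71-fold, adjusted p = 0.00701). DYSF, the membrane repair protein dysferlin, was higher at 1.41 ± 0.87 and CAV3, muscle caveolin, at 1.23 ± 0.24, although each lost its call without 3 of the 4 arrays (mean 1.05 to 1.74 and 1.17 to 1.34).

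The dystrophin complex moved in both directions, with 3 of 9 genes higher and 2 lower. The sarcoglycans SGCE, SGCB, and SGCD were higher at 0.86 ± 0.42, 0.85 ± 0.39, and 0.62 ± 0.41, with replicate 4 lowest in each at 0.27, 0.28, and 0.05, and 0 genes of the list were higher without replicate 1 or 2. SNTB2, a syntrophin, and DTNA, a dystrobrevin, were lower at -0.55 ± 0.25 and -0.54 ± 0.22. DTNA read 0.65, 0.31, 0.34, and 0.08 on the LIM arrays. The difference between HER over HF and LIM over HF did not pass (adjusted p = 0.0787). In log2 intensity the HER channel (Cy3) read 9.22, 9.31, 9.21, and 9.18 for DTNA. The HF channel read 10, 9.58, 9.7, and 9.82 on the HER arrays (Cy5). On the LIM arrays (Cy3) it read 9.01, 8.97, 8.94, and 9.03. Dye and breed cannot be told apart in the DTNA ratios or in their difference.

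Matrix genes formed the other large group. Of 14 tested fibrillar collagens and collagen-processing enzymes, 9 were higher and 0 lower, with a median of 1.55. COL11A1, a minor fibrillar collagen, read 3.44, 3.85, 4.15, and 1.07 (8.72-fold, adjusted p = 0.0138). COL1A2 and COL1A1, the chains of type I collagen, read 2.87, 2.80, 3.20, and 0.87, and 2.59, 2.75, 2.83, and 0.99. COL3A1, of type III collagen, read 2.83, 2.65, 3.48, and 0.59 (adjusted p = 0.0246). In each of these 4 genes replicate 4 lay far below the other arrays while still above 0. Without replicate 1, 2, or 3 the collagens COL11A1, COL1A2, and COL3A1 lost their calls, with means of 2.78 to 3.81, 2.18 to 2.96, and 2.02 to 2.99 over the arrays left out in turn, and the list kept 5, 4, and 5 genes higher. Without replicate 4 it had 9.

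The separate channels show where replicate 4 parts from the rest. COL3A1 had a log2 intensity of 15.21, 15.68, 15.65, and 14.89 in the HER channel, and of 12.38, 13.03, 12.17, and 14.31 in the HF channel. The HF channel of the LIM arrays with the same numbers read 11.79, 12.87, 11.72, and 14.17. For COL3A1 the HF channel numbered 4 was thus the brightest of the HF channels on both sets of arrays. The HER channel numbered 4, at 14.89, was also the dimmest of the HER channels. CTSB, a lysosomal protease, gave the same picture in the HF channel, with readings of 11.08, 11.37, 10.84, and 12.57. Its HER readings of 14.03, 13.96, 13.56, and 13.81 were lowest on replicate 3.

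**Figure D3:**
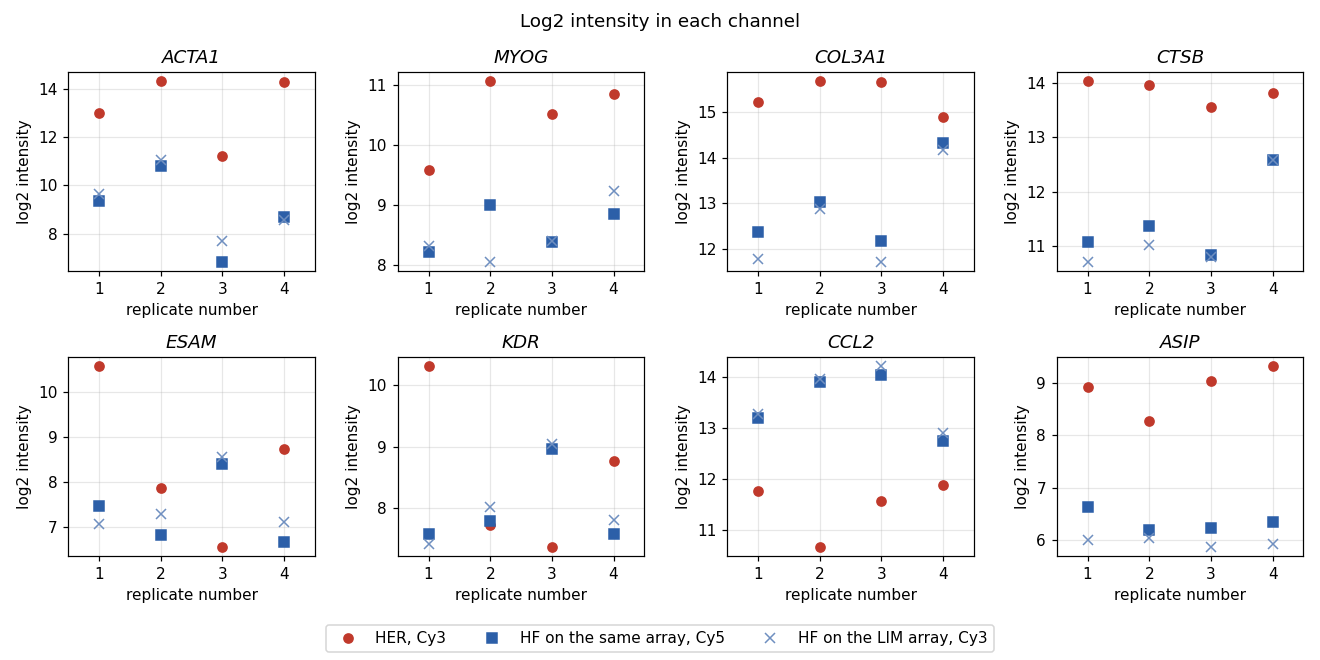
Log2 intensity after normalization for 8 genes (vertical axes, each gene on its own scale) by replicate number, for the HER channel (red circles), the HF channel of the same array (blue squares), and the HF channel of the LIM array with the same number (crosses). HF readings with the same number lie near each other on both sets of arrays in some cases, such as 14.31 and 14.17 for COL3A1 in replicate 4. In others they lie apart, such as 9.01 and 8.06 for MYOG in replicate 2. ESAM and KDR are the genes shown in which HER and HF change order between replicates.

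Basement membrane genes were higher in 5 of 8 and lower in 0 (median 1.45). FN1, fibronectin, read 3.70, 3.08, 1.90, and 1.88 (6.23-fold, adjusted p = 0.00533), SPARC, a collagen-binding matrix protein, 2.32, 2.60, 2.57, and 1.54 (4.78-fold), and HSPG2, perlecan, 2.36, 2.55, 2.01, and 1.62 (4.4-fold). NID1, nidogen, read 1.51, 1.52, 1.60, and 0.23 and lost its call without replicate 1, 2, or 3 (mean 1.09 to 1.54). Of 18 proteoglycan and elastic fibre genes, 6 were higher and 1 lower. FMOD, fibromodulin, read 3.61, 3.07, 4.18, and 1.41 (8.39-fold, adjusted p = 0.013), a call lost without replicate 1, 2, or 3 (mean 2.70 to 3.62), and MFAP5, a microfibril protein, 3.81, 2.24, 1.94, and 2.78 (6.46-fold, adjusted p = 0.00777). EFEMP2, needed for elastic fibre assembly, and LUM, lumican, were higher at 1.91 ± 0.59 and 1.43 ± 0.52, and EPYC, a cartilage proteoglycan, was lower at -0.63 ± 0.16. Among 14 metalloproteinases and their regulators, 5 were higher and 0 lower, including MMP2, a gelatinase (1.79 ± 0.40), and its inhibitor TIMP2 (2 ± 0.57). The list kept 2, 1, and 1 of these 5 without replicates 1, 2, and 3.

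**Figure D4:**
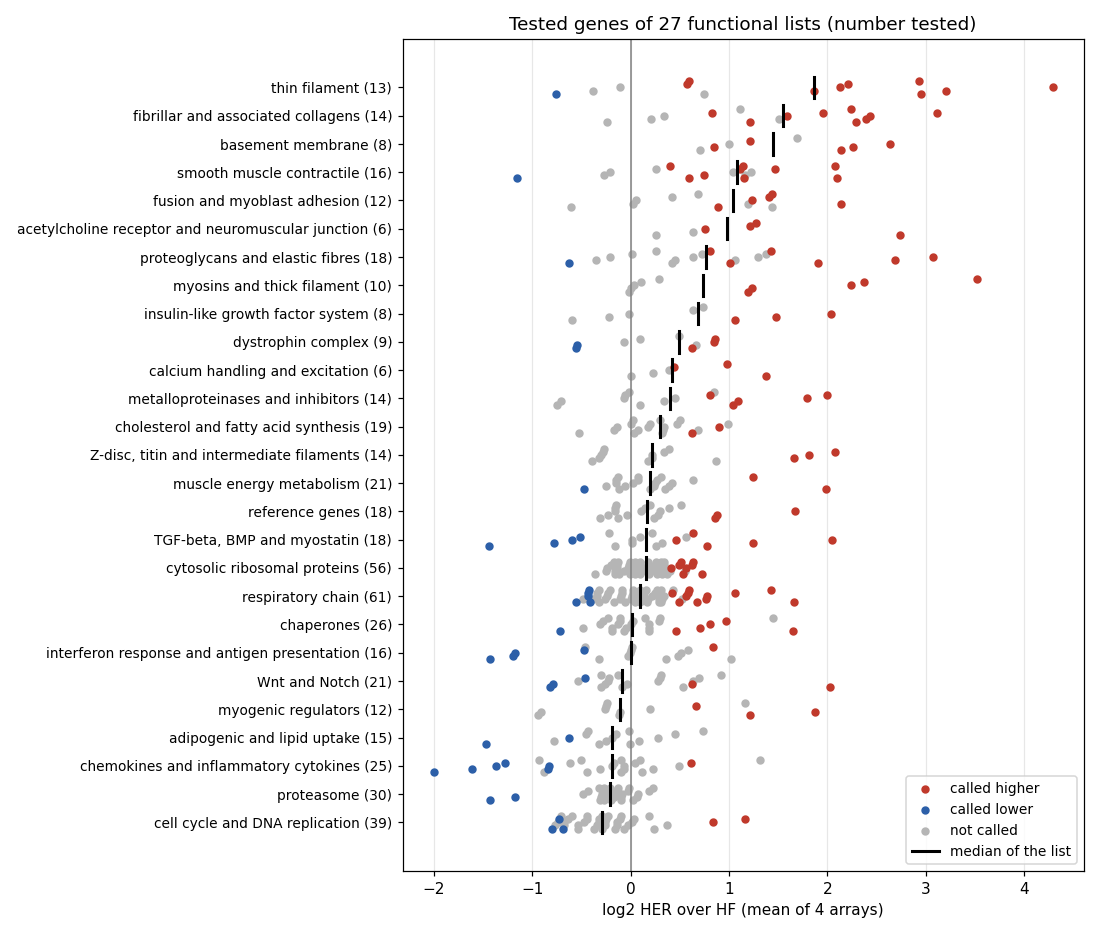
Mean log2 HER over HF of each tested gene (points) in 27 functional lists, ordered by the median of the list (black bar), with genes called higher in red, called lower in blue, and not called in grey. The median is 1.86 for the thin filament and 1.55 for collagens, and lowest for cell cycle genes at -0.29.

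In the insulin-like growth factor system 3 of 8 genes were higher and 0 lower. IGF1, which the study reported as higher in both beef breeds by array and qPCR, was not among the genes tested here. IGF2R, which clears IGF2 and sorts lysosomal enzymes, read 2.55, 2.40, 2.05, and 1.16 (4.11-fold, adjusted p = 0.00531), and the binding proteins IGFBP2 and IGFBP4 were higher at 1.48 ± 0.41 and 1.06 ± 0.45. IGFBP4 lost its call without any of the arrays (mean 0.89 to 1.21). Of 18 genes of the TGF-beta, BMP, and myostatin list, 5 were higher and 4 lower. LTBP2, a matrix protein related to the binders of latent TGF-beta, read 2.25, 2.65, 1.73, and 1.55 (4.13-fold, adjusted p = 0.0085), against 1.28, 0.97, 0.61, and -1.10 on the LIM arrays (adjusted p of the difference 0.213). The ligands parted, with TGFB2 higher at 1.24 ± 0.53 and TGFB1 and TGFB3 lower at -0.59 ± 0.38 and -0.78 ± 0.62 (TGFB3 adjusted p = 0.0757 with the replicate block). INHBA, a subunit of activin, read -1.24, -1.31, -2.37, and -0.84 (adjusted p = 0.0192), and INHA, the inhibin subunit, was higher at 0.78 ± 0.37. The list had 1, 2, and 3 genes higher and 0, 1, and 1 lower without replicates 1, 2, and 3. Among 21 Wnt and Notch genes 2 were higher and 3 lower, among them DKK3, a dickkopf family member, at 2.03 ± 0.48 and TCF7, a nuclear effector of Wnt, at -0.79 ± 0.26, and 0 were higher and 1 lower without replicate 1, 2, or 3.

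Inflammatory genes were more often lower. In the chemokine and inflammatory cytokine list 6 of 25 genes were lower (24%, against 7.07% of all tested genes) and 1 was higher. Beside CCL2, the cytokine IL6 read -0.89, -2.37, -1.54, and -1.65 (adjusted p = 0.0199), IL1RN, the interleukin-1 receptor antagonist, -0.36, -1.13, -1.93, and -2.07, and CXCL5, a neutrophil chemokine, -1.59, -1.61, -1.25, and -0.66. IL15, a cytokine made by muscle, was higher at 0.61 ± 0.55, with an HF side well above background on 2 of 4 arrays and an adjusted p of 0.0666 with the replicate block. Without replicates 1, 2, 3, and 4, the genes lower in this list numbered 3, 0, 1, and 2. Interferon and antigen presentation genes were lower in 4 of 16 and higher in 1. PSMB9 and PSMB8, interferon-induced proteasome subunits, read -0.65, -2.11, -1.49, and -1.48, and -0.34, -1.68, -1.22, and -1.45, and they were the 2 of 30 proteasome genes called. With the replicate block the adjusted p of PSMB9 was 0.0617. ISG15, an interferon-induced modifier, was lower at -1.19 ± 0.27. Without replicate 2 the interferon list had 0 genes called.

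Cell division genes were mostly not called. Of 39 cell cycle and replication genes, 2 were higher and 3 lower, with 7 of 39 above 0 and a median of -0.29. CDKN2B, an inhibitor of cyclin-dependent kinases, read 1.11, 1.09, 1.67, and 0.78, and CCND3, a cyclin kept on in differentiating muscle, 0.57, 1.17, 0.56, and 1.09. The genes lower were CCNB2, a mitotic cyclin (-0.80 ± 0.42), TK1, thymidine kinase (-0.73 ± 0.29), and GINS1, of the replication helicase (-0.69 ± 0.34). Without replicates 1, 2, and 3 the list had 0 genes lower.

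Genes of cell upkeep lay near the background. Cytosolic ribosomal proteins were higher in 8 of 56, with a median of 0.16, but with median centring in place of loess 0 were higher, 5 were lower, and the median was -0.17, so their direction depends on the scaling. Without replicates 1 to 4 in turn 2, 4, 3, and 12 were higher. Respiratory chain genes were higher in 11 of 61 and lower in 5, led by ATP5F1E, a subunit of ATP synthase (1.66 ± 0.52), and COX7A1, the muscle form of a cytochrome oxidase subunit (1.43 ± 0.50). With median centring 2 were higher and 4 lower, and without replicate 1 or 2 there was 1 of each. Of 26 chaperones 5 were higher and 1 lower, and without replicates 1, 2, and 3 there were 3, 2, and 3 higher and 0 lower. PDIA3, a protein disulfide isomerase of the endoplasmic reticulum, stood at 1.65 ± 0.58 and HSPA1A, an inducible heat shock protein, at -0.72 ± 0.47. Cholesterol and fatty acid synthesis genes were higher in 2 of 19, SCD, the stearoyl-CoA desaturase, at 0.90 ± 0.56 and MVD, of the mevalonate pathway, at 0.62 ± 0.40, and in 1, 1, 0, and 1 without replicates 1 to 4. Neither SCD nor MVD kept its call without replicate 2 or 3, so the gene higher without replicate 2 was another. Adipogenic and lipid uptake genes were lower in 2 of 15, FABP5, a fatty acid binding protein (-1.47 ± 0.76), and PLIN2, which coats lipid droplets (-0.63 ± 0.40), and in 0 without replicate 1, 2, or 3. Of 18 reference genes 3 were higher and 0 lower, the largest being GUSB, a lysosomal glucuronidase, at 1.67 ± 0.39. GAPDH read 0.37, 0.33, 0.32, and -0.07 and ACTB 0.19, 0.19, 0.11, and -0.04, neither called, and both means turned negative with median centring (-0.08 and -0.20) and with backgrounds as measured (-0.28 and -0.38).

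Lysosomal genes were listed after several had been seen among the highest, so their counts, even more than those of the other lists, are a description. Of 36 tested, 24 were higher (66.7%, against 11.9% of all tested genes), 0 were lower, and the median was 1.17. CTSB read 2.95, 2.59, 2.73, and 1.23 (5.19-fold, adjusted p = 0.0143), LAMP1, a lysosomal membrane protein, 2.95, 2.52, 2.38, and 1.43 (5-fold, adjusted p = 0.00466), and CTSA, a carboxypeptidase, 3.03, 2.55, 2.21, and 1.33 (4.86-fold, adjusted p = 0.0074). CTSL, another protease, had a wider spread at 1.90, 3.97, 1.95, and 0.82. The number higher fell to 7, 8, and 12 without replicates 1, 2, and 3, with medians of 1.05, 1.08, and 1.18. Translocon and N-glycosylation genes, listed in the same way, were higher in 5 of 24 and lower in 1, with a median of 0.09. OS9, a lectin of endoplasmic reticulum quality control, stood out at 2.46 ± 0.78.

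Markers of cell types were read in the same way. Satellite cell and myoblast markers were higher in 5 of 9 tested (median 1.21) and markers of differentiating muscle in 7 of 8 (median 2.65), with 0 lower in either. Of 12 fibroblast markers, 6 were higher and 2 lower. The 2 lower were PDGFRA, the receptor that marks fibro-adipogenic cells (-1.49, -1.35, -0.64, and -1.04, adjusted p = 0.00483), and TCF21, a transcription factor of fibroblasts (-0.75, -1.02, -0.53, and -0.55, adjusted p = 0.0156), while the higher ones included COL1A1, COL1A2, COL3A1, MFAP5, and LUM. Without replicates 1, 2, and 3 the higher ones numbered 3, 2, and 3. Smooth muscle and pericyte markers were higher in 2 of 7, ACTA2, smooth muscle actin (1.14 ± 0.41), and MYH11, smooth muscle myosin (1.11 ± 0.94), and in 0 of 7 without replicate 1 or 2. ACTA2 lost its call whichever HER array was left out (mean 0.99 to 1.32), and MYH11 without replicate 1 or 2 (0.70 to 1.37). In a broader list of smooth muscle contractile genes, 9 of 16 were higher and 1 lower, with MYLK, the kinase of myosin light chain, at 2.10 ± 0.50 and CSRP2, a LIM-domain protein, at -1.15 ± 0.22. This count fell to 2, 2, 4, and 6 higher without replicates 1 to 4. MYLK and CSRP2 each lost the call without replicate 1, 2, or 3 (mean 1.94 to 2.33 and -1.22 to -1.05). Of adipocyte markers 0 of 6 were called, of macrophage and leukocyte markers 0 of 5, and of dividing cell markers 0 of 5, the last with a median of -0.68. NGFR, the nerve growth factor receptor, was the 1 Schwann cell marker of 4 called, at -0.98 ± 0.30, and 0 were called without replicate 1, 2, or 3.

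Endothelial markers varied widely between replicates. Of 6 tested 0 were called, and their medians on replicates 1 to 4 were 2.23, -0.11, -1.58, and 1.00. ESAM, an adhesion molecule of endothelial junctions, read 3.1, 1.04, -1.85, and 2.08 (adjusted p = 0.379), and TIE1, an endothelial receptor kinase, 2.08, 0.57, -0.64, and 1.00 (adjusted p = 0.297). KDR, the main receptor of vascular endothelial growth factor, chosen after its values were seen, had log2 intensities of 10.30, 7.73, 7.37, and 8.76 in the HER channel and 7.58, 7.80, 8.96, and 7.58 in the HF channel. The HER channel of replicate 1 was thus brightest among HER channels and the HF channel of replicate 3 among HF channels, and the HF channel of the LIM array numbered 3 read 9.05.

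The same pattern led the list of named genes with the largest SD between HER arrays, which was drawn up after the values were seen. EDN1, the vasoconstrictor endothelin, read 3.26, 0.83, -3.58, and 2.59. ROBO4, a receptor of endothelial cells, read 2.75, 0.39, -3.56, and 1.62. SOX18, a transcription factor of vessels, read 3.69, 1.00, -2.43, and 2.24. CD34, carried by endothelial and fibro-adipogenic cells, read 3.17, 0.50, -2.33, and 1.46. In each, replicate 1 was highest, replicate 3 lowest and below 0, and no mean was called. COL18A1, a collagen of vessel basement membranes, followed the same order at 3.62, 1.40, -1.15, and 2.88 (adjusted p = 0.134), as did PALMD, a gene of the fusion list, at 3.19, 1.52, -0.95, and 2.01 (adjusted p = 0.18). The part of the endothelial markers in any result above was not tested. MYH3, MYOG, and CHRNG had an SD of 0.47, 0.36, and 0.15 between the same arrays.

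**Figure D5:**
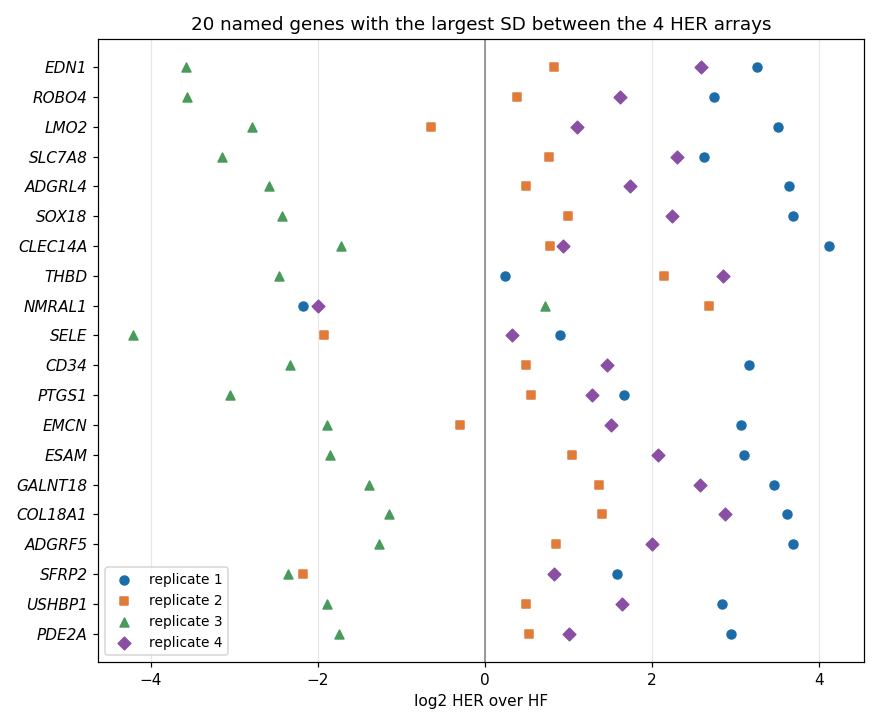
Log2 HER over HF on each of 4 arrays for the 20 named genes with the largest SD between HER arrays, leaving out genes with a spot in an extreme local background, ordered by SD with EDN1 at the top. Replicate 3 is below 0 in most of these genes and replicate 1 above it, as for ROBO4 with -3.56 and 2.75.

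At the other end, the 5 called named genes with the smallest spread had log2 ratios near 0.5 in size. PRMT7, an arginine methyltransferase, read -0.49, -0.49, -0.42, and -0.46 (adjusted p = 0.00381), and SLC7A5, an amino acid transporter, 0.41, 0.47, 0.46, and 0.48 (adjusted p = 0.0173). In log2 intensity the HER channel (Cy3) read 9.5, 9.84, 9.89, and 9.58 for PRMT7. The HF channel read 9.99, 10.33, 10.32, and 10.05 on the HER arrays (Cy5). On the LIM arrays (Cy3) it read 9.72, 9.82, 10.03, and 9.82. Dye and breed cannot be told apart in the PRMT7 ratio. RIDA, a deaminase, and MOB2, a kinase regulator, were higher at 0.51 ± 0.05 and 0.45 ± 0.04, and KCTD6, a ubiquitin ligase adaptor, was lower at -0.45 ± 0.04. MOB2 lost its call whichever HER array was left out (mean 0.44 to 0.46). RIDA and SLC7A5 lost theirs without replicate 1, 2, or 3 (mean 0.50 to 0.53 and 0.45 to 0.47). PRMT7 and KCTD6 kept their calls with any 1 HER array left out. SLC7A5 read 0.30, -0.40, -0.11, and -0.06 on the LIM arrays (adjusted p of the difference 0.169).

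A test of the difference between HER over HF and LIM over HF passed for 1 of 16041 probes (0.00623%), and for 1587 at an unadjusted p (9.89%). The gene was ASIP, agouti signaling protein, which antagonizes the melanocortin receptor of pigment cells. It read 2.28, 2.07, 2.79, and 2.96 on the HER arrays (5.76-fold over HF, adjusted p = 0.00117) and -0.05, -0.07, 0.01, and 0.11 on the LIM arrays, with no overlap between them. Its HER value was 4.33 with the scanner software's log ratios and 1.29 with backgrounds as measured. The difference was 2.53 (SE 0.197, adjusted p = 0.0179), against 4.23 and 1.31 under those settings, with an adjusted p of 0.159 when the replicate number was a block, and of 0.0577 to 0.156 without HER replicate 1 or 3 or LIM replicate 1, 2, or 3. In the HER channel its log2 intensity was 8.91, 8.28, 9.03, and 9.31, and in the HF channel 6.63, 6.20, 6.24, and 6.35. The HF channel of the LIM arrays read 6, 6.04, 5.87, and 5.94 for ASIP. On the HER arrays the HF channel had ASIP well above background on 4 of 4. Averaged over both channels of all 8 arrays, a scale unlike that of single channels, ASIP read 6.75 and the lowest tested probe 5.98. At the dim HF levels of the LIM arrays, the small LIM ratios cannot tell equal expression in LIM and HF from too little signal in both channels. The same limit holds for the difference between HER over HF and LIM over HF. Slide, dye orientation, and breed cannot be told apart in this difference.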

How the data were processed

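Cultures from 4 HER, 4 LIM, and 4 HF bulls were hybridised to 8 two-colour Agilent bovine arrays. The authors deposited scanner files with spot intensity and local background intensity per channel, made with Feature Extraction 10.7.3.1, and the software's log10 ratio (red over green), which the deposited series table repeats. The deposited files hold median and not mean spot intensities, so medians were used where means had been planned. Local backgrounds marked as outlying by the scanner software were set to the median background of that array and channel. Intensities were corrected with normexp (offset 50) and normalized by loess within each array (limma 3.58.1, R 4.3.3). In loess the control spots had weight 0. Further, outlying spots were left out, spots were averaged per probe, and log2 ratios were turned to beef breed over HF. A probe was tested if 4 or more of the 8 HER-array channels had it well above background.

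All 8 arrays were fitted with lmFit and eBayes, with 1 mean for HER and 1 for LIM. A change was called at a Benjamini-Hochberg adjusted p of at most 0.05 and a fold of at least 1.3. Spreads printed after ± are SDs over the 4 HER arrays, while p-values use a spread per probe shared with the LIM arrays. CHRNG, for example, had an SD of 0.15 between HER arrays and an SE of 0.241, and MYL2 1.45 and 0.492. With 4 arrays a two-sided exact sign-flip test cannot go below p = 0.125, so single-gene p-values come from limma. The number of arrays limits the precision. On data simulated for this comparison over 16041 probes, 83% of changes of log2 size 1 and 100% of size 2 were called, and 0.0505% of unchanged probes. The simulation drew independent noise for each probe and array, with 200 changed probes and LIM ratios centred on 0. It held no HF material shared between arrays and no differences in cell mix between cultures. These shares therefore need not hold for the measured data.

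Accessions were matched to RefSeq gene symbols (ARS-UCD2.0 tables), with 6 further genes named through accession and gene pairs listed in the study. Symbols were found for 8303 of 21475 probes, of which 8221 are gene names other than uncharacterized loci. A gene with several probes was read by its brightest. Genes named were the 15 highest and 15 lowest called with 1 sign on all arrays, up to 4 called genes of each list in each direction by size (up to 2 genes where none was called), the 5 called genes of largest and the 5 of smallest SD, the gene that differed between HER and LIM, and 6 fixed genes. Other genes are said to be chosen after their values were seen. Members and gene lists were chosen with earlier results of these data known. Alternatives changed the background treatment, normalization, filter, model, replicate block, and the arrays included.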

Additional observations from a re-analysis of the deposited data

Results flagged for a closer look

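In 10 of 154 named genes checked, 1 of the 4 HER arrays stood apart from the other three by more than Dixon's 95% limit. Chance flags about 1 in 20 such groups. Replicate 4 was the one apart in 7 of these. It read 0.99 for COL1A1 (2.59 to 2.83 on the others), 0.23 for NID1 (1.51 to 1.60), 1.15 for TIMP2 (2.22 to 2.35), 0.68 for COX7A1 (1.67 to 1.70), 1.69 for CST3, the protease inhibitor cystatin C (2.76 to 2.96), -0.02 for HSPA1A (-1.03 to -0.87), and -0.07 for GAPDH (0.32 to 0.37). Replicate 1 read 2.52 for CHRNG (2.80 to 2.81), -3.02 for RGS17 (-1.38 to -1.29), and -0.88 for EPYC (-0.57 to -0.53).

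HER replicate 3 had 130 spots marked as outlying, against 20 to 37 on the other HER arrays. The ASIP difference of 2.53 between HER over HF and LIM over HF passed its own test of the difference. It did not pass that test with the replicate number as a block (adjusted p = 0.159).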

How the results depend on the processing

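The 3040 called probes of HER over HF fell to 0 with local backgrounds as measured, and to 0, 5, and 12 when replicate 2, replicate 3, or both were also left out. Without HER replicates 2 and 3 and with replaced backgrounds 6 were called. The methods' t-test gave 3372 before and 0 after Benjamini-Hochberg adjustment. Leaving out 1 HER array gave 1131 to 2737, with the fewest without replicate 2 and 1225 without replicate 1, and leaving out 1 LIM array gave 2643 to 3865. Of 143 named called genes, 67, 59, 79, and 118 were still called without HER replicates 1 to 4. Of called probes 54.7% were higher here, 37.8% under median centring (891 higher, 1469 lower of 2360), and 42.6% with the scanner's log ratios (1786 and 2403 of 4189), which change background treatment and normalization together. The other alternatives gave 2783 to 4035. For HER minus LIM, 1 probe here became 6730 with median centring, 303 with array weights, 28 with no filter, 24 with the scanner's or the series table's ratios, and 1587 unadjusted. The number became 0 with backgrounds as measured (also without replicate 2, 3, or both), without HER replicates 2 and 3, with scaling between arrays, and under the replicate block, and 0 to 12 with 1 array left out. The ASIP difference had adjusted p-values from 0.00153 to 0.459 over these alternatives. GAPDH turned to -0.28 and ACTB to -0.38 as measured, to -0.47 and -0.56 when HER replicate 2 was also left out, and to -0.08 and -0.20 with median centring. The cause of these shifts was not tested. Same-numbered HER and LIM arrays deviated together in the HF channel (correlations 0.783, 0.787, 0.75, and 0.9, against at most 0.122 for other pairs). Their log2 ratios did not do so in every pair (-0.281, 0.121, 0.358, and 0.603). With 4 HF bulls behind both sets of arrays, HF bulls must recur across the sets. The labels do not say whether a number marks a shared HF culture, so the unblocked fit was kept. That fit treats all arrays as independent. Its p-values, those of HER minus LIM included, therefore take no account of shared HF material. With the replicate block 3341 probes were called, and 132 of the 143 genes. The calls lost were those of PSMB9, MYF6, NRAP, ATP2A2, TGFBR2, TGFB3, SFRP1, SFRP5, DKK2, MMP23, and IL15.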
